A study of Mus musculus with 4 samples.

Results

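Cycling alveolar type 2 (AT2) cells are the 1079 cells, of 45936 in all, that the authors' deposited annotation puts in the class of that name. They came from mouse alveolospheres, organoid co-cultures of AT2 cells with PDGFRα-positive lung fibroblasts. The 2 control libraries carried the genotype label wild type, and the 2 knockdown libraries held wild-type AT2 cells and fibroblasts with a PDGFRα-specific knockdown of the transcriptional co-activators YAP and TAZ. The medium of both groups contained 3 µg/ml doxycycline from day 7 until the cells were harvested on day 14, so the controls carried the drug too. The labels call the libraries of a group biological replicates without naming separate animals, so p-values measure only the spread between libraries, which may be technical. The class was compared with the 2099 non-cycling AT2 cells of deposited cluster 9, with 2543 cycling fibroblasts where a response could be shared by dividing cells, and between the control and knockdown libraries.

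AT2 cells make pulmonary surfactant and act as the stem cells of the alveolus: after injury they re-enter the cell cycle, renew themselves and give rise to the flat AT1 cells of gas exchange. A dividing cell first switches on DNA replication genes in S phase through E2F factors, and later the spindle and kinetochore genes of G2 and mitosis. Fibroblasts next to the AT2 cell supply Wnt, FGF and other signals that hold it in this state, and YAP and TAZ are the nuclear effectors of the Hippo pathway. The series title names Wnt4 as the signal between the compartments.

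Control libraries 1 and 2 contributed 238 and 205 cycling AT2 cells, and knockdown libraries 1 and 2 contributed 472 and 164. Their summed depth was 1432859, 1344733, 4125323 and 1525209 unique molecular identifiers (UMIs, each a counted RNA molecule) in that order. The median cell held 5388 and 5649 UMIs in control libraries and 7375 and 8364 in knockdown libraries, with no overlap. Whole libraries held 44284602 to 71523447 UMIs, and in the fibroblasts the level of Yap1 was 70.6 and 73.3 CPM (the count scaled to a common library total) in the controls against 44.7 and 39.2 in the knockdowns. The TAZ gene, Wwtr1, stood at 277, 260, 212 and 186 CPM in the same cells and order. Fibroblast levels here and below, other than those of cycling fibroblasts, are of a pool of deposited classes. The pool held the non-cycling fibroblasts with the myofibroblast-like, smooth muscle, EMT-like and unknown mesenchymal classes. No cell barcode of the class occurred among its cells in another library, and 51 of its cells (4.73%) had a barcode found in some other library. Of the 44852 distinct barcodes of the series, 1073 (2.39%) occurred in 2 or more libraries. That is a share of barcodes and not of cells, so the 2 percentages cannot be compared directly.

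The label was set beside markers. Mki67, Top2a and Sftpc were given with the class, which was cut from the same RNA, so their presence is no independent check. After each cell was thinned to 2000 UMIs, a depth common to all cells kept, at least 1 UMI of Mki67 or Top2a was found in 61.9%, 69.1%, 59.6% and 68.3% of cycling AT2 cells (control 1, control 2, knockdown 1, knockdown 2; 1 or 2 shallower cells were left out in each of the first 3 libraries and 3 in the last). The same measure gave 6.40% to 8.52% in non-cycling AT2 cells, 2.78% to 7.14% in Myo1f-positive fibroblasts, taken as the background of free RNA, and 56.8% to 69.3% in cycling fibroblasts. Without thinning, the share in cycling AT2 cells was 89.1%, 92.2%, 91.9% and 95.7%. Mki67 encodes the proliferation antigen Ki-67 and Top2a the topoisomerase that untangles replicated DNA.

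Surfactant protein C (Sftpc) gave at least 1 UMI in 97.9% to 100% of thinned cycling AT2 cells, but also in 60.9% to 89.2% of cycling fibroblasts, so the share of positive cells does not set the classes apart; the level does. The summed level of the AT2 identity list was 61.5% to 78.6% of that in non-cycling AT2 cells, against 1.70% to 2.92% in transitional epithelial cells. Transitional markers stood at 28.3% to 34.4% of their level in transitional cells, against 19.1% to 20.8% in non-cycling AT2 cells. AT1 markers stood at 39.7% to 47.0% of their level in the AT1-like cells of cluster 14, against 37.7% to 47.8% in non-cycling AT2 cells. Fibroblast markers stood at 11.4% to 15.0% of their fibroblast level, the same band as in non-cycling AT2 cells (11.3% to 14.9%). Endothelial markers summed to 1.23 to 2.47 CPM and immune markers to 4.25 to 14.3 CPM. Among the 10 genes that led the class over all other cells, Ect2 and Kif11 were listed G2/M genes and Sftpa1 a listed AT2 gene, and the others, led by Esco2, Iqgap3 and Sgpp2, were on no list.

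The class was cut by clustering the same RNA profiles, so its differences from non-cycling AT2 cells are a description and carry no test. Of 8971 genes with a mean of at least 10 CPM, 289 (3.22%) were at least 2-fold higher in cycling AT2 cells in each of the 4 libraries and 16 (0.178%) were at least 2-fold lower. S and G2/M list members made up 77 of the 289. Median log2 ratios by list ran from 3.10 for G2/M genes through 1.66 for S phase genes to -0.50 for AT2 identity genes, against a median near 0 (-0.00068) over all measured genes. The filter itself was a choice: at a mean of at least 50 CPM, 72 genes were counted as higher and 6 as lower, and without knockdown 1 the number counted as lower was 35.

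**Figure D1:**
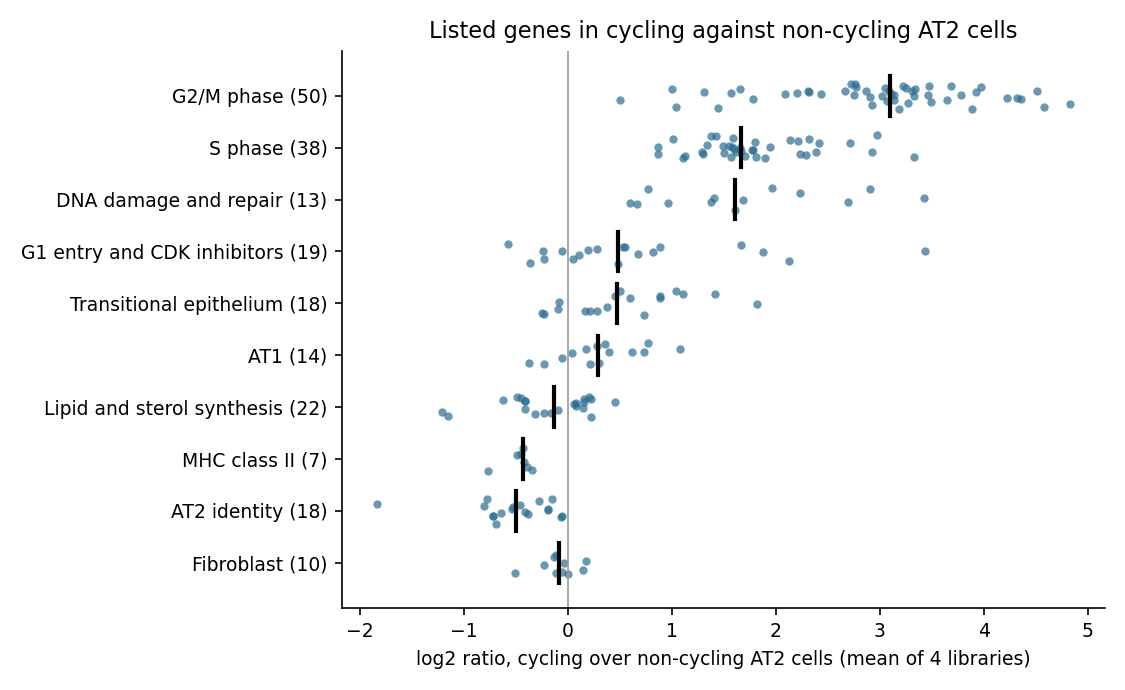
Log2 ratio of cycling over non-cycling AT2 cells, mean of 4 libraries, for the measured genes of 10 lists (number of genes in brackets); each point is a gene and each black bar a list median. The G2/M points centre on 3.10 and the S phase points on 1.66, while all 18 AT2 identity points lie below 0.

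Of the 50 measured G2/M genes, 47 were counted as higher, with the kinesin gene Kif11 (log2 ratio 4.83), the mitotic kinase gene Aurkb (4.58), the checkpoint kinase gene Ttk (4.51) and the kinetochore gene Nuf2 (4.36) at the top. Kif11 (ENSMUSG00000012443, chromosome 19, 37376403 to 37421859, plus strand) read 175, 152, 183 and 146 CPM in cycling AT2 cells (control 1, control 2, knockdown 1, knockdown 2) and 4.56, 4.23, 6.06 and 9.18 CPM in non-cycling ones. Top2a (ENSMUSG00000020914, GRCm38 chromosome 11, 98992943 to 99024189, minus strand) read 304, 343, 309 and 369 CPM against 17.8, 17.4, 16.4 and 19 CPM. Mki67 (ENSMUSG00000031004, chromosome 7, 135689784 to 135716361, minus strand) read 181, 239, 186 and 222 CPM against 21.4, 21.2, 21.3 and 30.6 CPM. For all of these genes every cycling value lay above every non-cycling value.

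S phase genes stood less far apart: 30 of 38 measured members were counted as higher. E2f8, a repressor E2F that acts late in S phase, had a log2 ratio of 3.33, the checkpoint mediator gene Clspn 2.98 and Rrm2, a ribonucleotide reductase subunit gene, 2.93. Pcna, the replication clamp, read 114, 151, 158 and 169 CPM in cycling AT2 cells and 44.7, 65.8, 54.6 and 79.5 CPM in non-cycling ones, a log2 ratio of 1.29. The helicase gene Mcm6, at 1.13, missed the count because knockdown 2 gave 0.82. Outside the phase lists, 7 of 13 measured DNA damage and repair genes were higher, among them Fancd2 (3.43), Rad51ap1 (2.90) and Brca1 (2.70), and 3 of 19 genes of G1 entry and CDK inhibition, namely E2f7 (3.43), Rbl1 (2.13) and Cdkn2c (1.87). Ccnd1, the D cyclin of G1 entry, had a log2 ratio of -0.23, and Cdkn1a, which encodes the CDK inhibitor p21, also -0.23.

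Surfactant and lamellar body genes stayed among the most abundant of the class, below their non-cycling level. Sftpc (ENSMUSG00000022097, chromosome 14, 70520949 to 70524081, minus strand) read 38282, 48238, 54416 and 51300 CPM in cycling AT2 cells against 53772, 78351, 67811 and 78517 CPM in non-cycling ones, a log2 ratio of -0.53 ± 0.17 (SD, n = 4 libraries). Within every library the cycling value was the lower one. All 18 measured AT2 identity genes had a mean ratio below 0, and 1 of them, the lysozyme gene Lyz2, was counted as lower (-1.84), with 118, 174, 187 and 136 CPM against 445, 606, 581 and 541 CPM. Abca3, the lipid transporter of lamellar bodies, stood at -0.81, and Sftpd, a collectin, at -0.07.

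Some genes of fatty acid synthesis leaned the same way: the desaturase gene Scd1 had a log2 ratio of -1.15, the elongase gene Elovl1 -1.21 (counted as lower) and Fasn -0.63. Over the 22 measured lipid and sterol synthesis genes the median was only -0.13. Their ratios ran from -1.21 to 0.45, and 21 of the 22 were counted in neither direction. The 7 MHC class II genes lay between -0.77 (Ciita, their master regulator) and -0.34. None of 14 AT1 genes was counted in either direction, and 1 of 18 transitional genes was: the integrin gene Itgb6, which read 250, 295, 205 and 229 CPM against 77.9, 113, 89.7 and 85.6 CPM (log2 ratio 1.42). Another transitional gene, Tnip3, had a mean ratio of 1.82 but only 0.62 in control 1. Msln, a mesothelial marker that some epithelia also make, was higher as well (2.81). Depth moved with the class: the median cycling AT2 cell held 1.51 ± 0.024 times the UMIs (SD, n = 4 libraries) and 1.502 times the ATAC fragments of the median non-cycling one, and the part of this in the gene ratios was not tested, although CPM divides by the total.

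Promoters of phase genes are shown because members of both lists were high together. The windows run from 250 bases before to 30 bases after the transcription start, 5′ to 3′ on the gene's strand, from RefSeq, build GRCm38.p6. Capitals mark matches, on either strand, to CHR (TTTGAA, the element of late cell cycle genes bound by DREAM and MuvB complexes), to CCAAT (the NF-Y box) and to an E2F motif (TTTCCCGC, TTTCGCGC, TTTGCCGC or TTTGGCGC). The first 3 belong to the S phase genes and the last 3 to the G2/M genes with the highest class ratio among those with a promoter used here.
E2f8, chr7:48881567-48881846, minus strand: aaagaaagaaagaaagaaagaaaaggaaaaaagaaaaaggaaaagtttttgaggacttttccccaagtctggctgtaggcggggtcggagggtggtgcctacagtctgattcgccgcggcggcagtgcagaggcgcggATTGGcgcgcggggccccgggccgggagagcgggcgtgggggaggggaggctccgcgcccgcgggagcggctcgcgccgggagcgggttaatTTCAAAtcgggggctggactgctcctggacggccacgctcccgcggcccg
Clspn, chr4:126556730-126557009, plus strand: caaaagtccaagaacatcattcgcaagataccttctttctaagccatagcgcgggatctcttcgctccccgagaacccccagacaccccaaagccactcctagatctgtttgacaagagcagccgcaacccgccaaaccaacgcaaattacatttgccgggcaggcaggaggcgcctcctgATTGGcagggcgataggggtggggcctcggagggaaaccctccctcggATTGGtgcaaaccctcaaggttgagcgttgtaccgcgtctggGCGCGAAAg
Rrm2, chr12:24708004-24708283, plus strand: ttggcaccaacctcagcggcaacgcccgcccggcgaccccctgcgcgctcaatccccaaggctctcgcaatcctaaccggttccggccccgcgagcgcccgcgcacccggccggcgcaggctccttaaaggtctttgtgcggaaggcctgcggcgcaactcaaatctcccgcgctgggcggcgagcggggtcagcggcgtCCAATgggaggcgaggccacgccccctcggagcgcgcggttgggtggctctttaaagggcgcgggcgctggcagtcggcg
Kif11, chr19:37376132-37376411, plus strand: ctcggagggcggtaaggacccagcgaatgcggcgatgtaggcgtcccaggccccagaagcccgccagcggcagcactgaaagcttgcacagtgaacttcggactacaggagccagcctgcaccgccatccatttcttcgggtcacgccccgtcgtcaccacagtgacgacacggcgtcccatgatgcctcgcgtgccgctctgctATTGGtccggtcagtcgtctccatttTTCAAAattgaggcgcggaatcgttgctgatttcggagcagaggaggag
Ttk, chr9:83834439-83834718, plus strand: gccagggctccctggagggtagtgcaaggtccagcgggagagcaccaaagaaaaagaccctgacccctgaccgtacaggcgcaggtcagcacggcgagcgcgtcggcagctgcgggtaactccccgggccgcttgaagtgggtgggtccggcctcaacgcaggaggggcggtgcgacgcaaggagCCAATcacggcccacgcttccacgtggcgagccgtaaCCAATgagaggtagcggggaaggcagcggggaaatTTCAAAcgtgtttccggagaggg
Nuf2, chr1:169531435-169531714, minus strand: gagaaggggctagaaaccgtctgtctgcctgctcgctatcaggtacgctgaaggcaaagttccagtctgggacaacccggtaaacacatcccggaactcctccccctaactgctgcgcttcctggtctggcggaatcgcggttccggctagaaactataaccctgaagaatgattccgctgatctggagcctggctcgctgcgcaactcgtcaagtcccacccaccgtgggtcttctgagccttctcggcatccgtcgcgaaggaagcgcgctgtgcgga

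A CHR match was found in 34 of 47 G2/M promoters (72.3%, from 43 genes) and a CCAAT match in 39 (83.0%). Of the 38 S phase promoters (32 genes), 6 held CHR (15.8%), 23 CCAAT (60.5%) and 12 an E2F motif (31.6%), which 1 G2/M promoter held (2.13%). Over all 32851 RefSeq promoters of the table, cut to the same length, the shares were 17.9% for CHR, 37.4% for CCAAT and 2.26% for E2F, and in 16 AT2 identity promoters they were 18.8%, 25% and 0%. No motif contains another, although CHR and some of the E2F motifs begin with the same letters. Kif11 and Ttk each carried CHR and CCAAT, Clspn an E2F match, and Nuf2 none of these letters. A match is a description of letters, not of binding.

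Among epithelial cells the cycling AT2 class made up 10.7% (95% exact binomial interval 9.41% to 12.01%) in control 1, 11.7% (10.3% to 13.3%) in control 2, 18.2% (16.8% to 19.8%) in knockdown 1 and 12.9% (11.1% to 14.8%) in knockdown 2. Intervals cover counting error only. Epithelial cells here were the cycling and non-cycling AT2 cells, the AT1-like and transitional cells and cluster 32, without clusters 19 and 23. Both knockdown values lay above both controls, and the means were 11.2% ± 0.751 and 15.6% ± 3.79 (SD, n = 2 each). An exact permutation test, two-sided, gave p = 0.333 for the difference of 4.36 percentage points, the smallest p that 2 against 2 libraries allow. Without knockdown 1 the difference was 1.68 points and without knockdown 2 it was 7.04 points, so its size rested on knockdown 1.

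Against the sum of cycling and non-cycling AT2 cells, the shares were 32.8%, 29.4%, 34.6% and 41.9%, which do not overlap either, and here knockdown 2 was the highest library. Against all cells they were 1.59%, 1.48%, 4.48% and 2.52%, a ratio that also moves with the number of fibroblasts. A coarser deposited annotation puts a further 741 cells, cluster 23, with the cycling epithelium, while the class annotation names them AT2. Those cells carried fibroblast markers at 5947 to 9377 CPM and had median doublet enrichment from 1.42 to 13.0, against 0.0316 to 0.145 in cycling AT2 cells. With cluster 23 counted as cycling and clusters 19 and 23 added to the epithelium, an alternative chosen after seeing the data, the shares were 16.2%, 18.1%, 23.7% and 14.6%, and the groups overlapped.

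**Figure D2:**
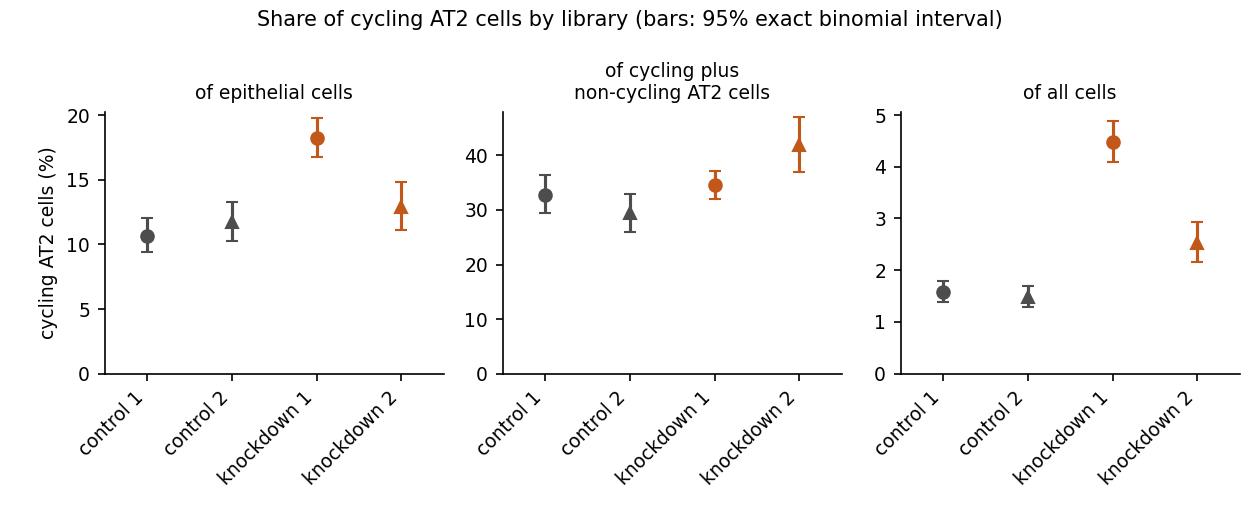
Share of cycling AT2 cells in each library against 3 denominators (y axes in percent); circles are replicate 1, triangles replicate 2, grey control, orange knockdown, and bars the 95% exact binomial interval. Knockdown 1 is highest among epithelial cells (18.2%) and knockdown 2 is highest against cycling plus non-cycling AT2 cells (41.9%).

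No listed S phase or G2/M gene changed detectably with the fibroblast knockdown. Summed S phase genes read 2127 and 2445 CPM in the controls against 2300 and 2601 CPM in the knockdowns, and summed G2/M genes read 5027 and 5646 CPM against 5492 and 6476 CPM. The groups overlapped in both sums (two-sided exact permutation p = 0.667 for each). By edgeR's quasi-likelihood test with Benjamini-Hochberg adjustment, used for every adjusted p below, 135 of 10102 genes (1.34%) changed between the groups: 38 rose (0.376%) and 97 fell (0.96%). At an unadjusted p under 0.05 there were 840. Of the listed phase genes none passed: 0 of 41 S phase genes, with a median log2 change of 0.04, and 0 of 50 G2/M genes, with a median of 0.13, against -0.0037 over all genes tested. Mki67 had a log2 fold change of -0.08 ± 0.20 (SE, adjusted p = 0.967) and Top2a one of 0.03 ± 0.20 (adjusted p = 0.992). The thinned share of cells with a UMI of either gene averaged 65.5% ± 5.13 in controls and 63.9% ± 6.19 in knockdowns (SD, n = 2 each; two-sided exact permutation p = 0.667).

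Outside these lists, 3 of 10 tested histone genes with names beginning Hist, looked at after their values were seen, fell. They were Hist1h2ap, from 125 and 184 CPM to 66.4 and 57.5 CPM (-1.30 ± 0.21, adjusted p = 4.73e-05), Hist1h2ae and Hist1h1e. DESeq2 called Hist1h2ap (adjusted p = 0.00102) but not Hist1h2ae (0.437) or Hist1h1e (0.686). The linker histone gene H1fx, outside this set, rose, and DESeq2 did not call it either (adjusted p = 0.549). The D cyclin gene Ccnd2 was the exception among regulators of G1 entry, where 1 of 22 tested genes passed. Ccnd2 (ENSMUSG00000000184, chromosome 6, 127125162 to 127152193, minus strand) read 50.4 and 54.0 CPM in control libraries against 19.1 and 20.3 CPM in knockdown libraries, with no overlap. Its log2 fold change was -1.41 ± 0.23 (SE, adjusted p = 0.000108), and it passed in 13 of 13 alternative analyses. In non-cycling AT2 cells the change was -0.53 ± 0.21 (adjusted p = 0.417), and the difference between the classes did not pass (adjusted p = 0.275). Ccnd2 was 5.84-fold higher in control fibroblasts than in control cycling AT2 cells. Its paralog Ccnd1 read 164, 201, 166 and 215 CPM with a log2 change of 0.05 ± 0.20.

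Members of the Wnt lists did not pass the test. None of 6 tested Wnt/β-catenin targets and none of 18 Wnt receptors and ligands passed, with median log2 changes of 0.02 and -0.05. Sfrp1, a secreted Wnt antagonist gene on neither list, fell (-0.93 ± 0.22, adjusted p = 0.0145) and lost its call without control 1 (0.0503), control 2 (0.198) or knockdown 2 (0.396), without the cells of highest doublet enrichment (0.0825) and by DESeq2. Wnt4 itself read 5.60, 7.51, 9.31 and 9.15 CPM in cycling AT2 cells (log2 change 0.50 ± 0.44, adjusted p = 0.849). Znrf3, an E3 ligase that removes Wnt receptors and is itself induced by the pathway, read 101, 82.6, 102 and 79.1 CPM. Of 20 tested genes of YAP, TAZ and their targets, none passed either. Their median log2 change was -0.15, with 14 lower and 6 higher, and 5 had an unadjusted p under 0.05. Yap1 read 81.9, 68.3, 71.2 and 67.3 CPM, and Wwtr1 read 227, 218, 168 and 131 CPM, which do not overlap (log2 change -0.56 ± 0.20, adjusted p = 0.24). Fibroblast levels of Wwtr1 ordered the libraries in the same way, and their part in the values of cycling AT2 cells was not tested.

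Identity genes of AT2 cells did not pass either. Of 18 tested members none was called, 17 of them had positive changes, their median was 0.31, and 5 had an unadjusted p under 0.05. Sftpc read 40453, 50393, 55349 and 53140 CPM (log2 change 0.26 ± 0.30, adjusted p = 0.906), with both knockdown values above both controls. None of 22 lipid, 15 AT1, 18 transitional, 7 MHC class II, 5 interferon, 14 DNA repair or 14 hypoxia and glycolysis genes passed. Scd1 read 2726, 2748, 2886 and 2932 CPM, and the AT1 gene Ager 627, 808, 903 and 752 CPM.

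The largest rise by fold was that of Pcp4, a small calmodulin-binding protein gene (ENSMUSG00000090223, chromosome 16, 96467606 to 96525793, plus strand). It had 1 UMI in each control library and 100 and 22 UMIs in the knockdowns. Pooled rates were 0.720 and 21.6 CPM, a ratio of 29.99 with a 95% counting interval of 8.12 to 250.4. Mmp9, the gelatinase gene, read 2.80 and 0 CPM in the controls against 25.2 and 17.7 CPM in the knockdowns (log2 fold change 3.89 ± 0.54, adjusted p = 3.88e-06). It was the only rise of a gene at least 5-fold higher in control fibroblasts than in control cycling AT2 cells. The part of free fibroblast RNA in the Mmp9 values was not tested. C2cd4b read 8.4 and 6.76 against 43.3 and 53 CPM (2.63 ± 0.31, adjusted p = 4.92e-08). All 3 genes passed in 13 of 13 alternatives.

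Cebpb, a bZIP transcription factor gene of injury and inflammation, read 27.3 and 21 CPM in controls and 79.0 and 174 CPM in knockdowns (2.33 ± 0.28, adjusted p = 7.66e-08). It was the one gene of 21 tested lung epithelial transcription factors that passed. Dapk3, a death-associated kinase gene, rose from 8.4 and 6.76 to 29.9 and 39.2 CPM (2.13 ± 0.32), the small heat shock gene Hspb1 from 11.9 and 19.5 to 43.3 and 53 CPM (1.59 ± 0.27), and Vegfb, a VEGF family ligand gene, from 11.2 and 17.3 to 40.8 and 44.5 CPM (1.57 ± 0.27). In each of these genes the lower knockdown value exceeded the higher control, which the rule for naming them required. Jund, an AP-1 subunit gene, rose with Hspb1 in a list of 15 immediate early and heat shock genes, in which Klf4 fell and 12 did not pass. Without control 2 the call of Jund was lost (adjusted p = 0.459), and that of Klf4 without control 1 (0.928) or knockdown 2 (0.401).

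Rises of Gzme (1.85 ± 0.43, adjusted p = 0.00997), Tmem238 (1.56 ± 0.25, adjusted p = 7.53e-05) and Lpcat4, a lysophospholipid acyltransferase gene (1.49 ± 0.33, adjusted p = 0.00587), were less stable. Tmem238 lost its call without control 1 (adjusted p = 0.266) and Lpcat4 without knockdown 2 (0.167). Gzme lost it without control 1 (0.0609), control 2 (0.191) or knockdown 2 (0.108). The rises had short genes, with a median span of 6.56 kb against 27.0 kb for all tested genes and 87.2 kb for the falls. Over the 10102 genes, fold change and span had a Spearman correlation of -0.36, a description across genes that share libraries, and with span as an offset 62 genes were called.

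**Figure D3:**
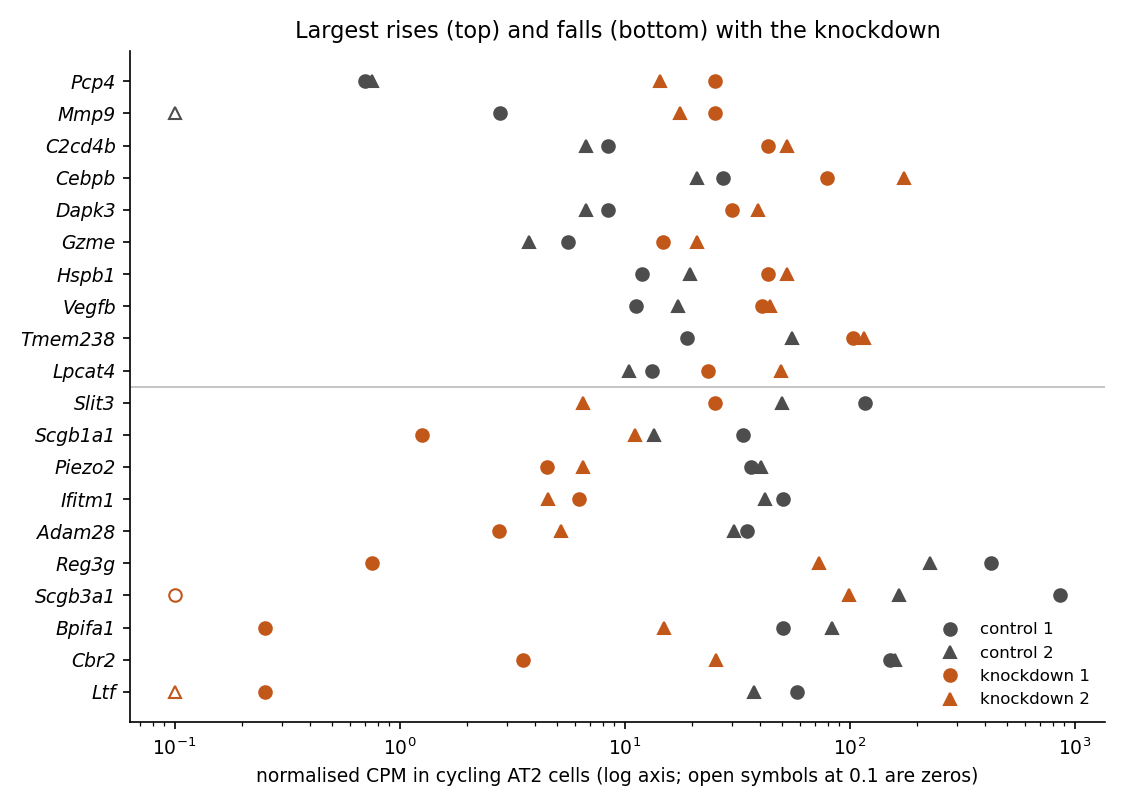
Normalised CPM (log axis) in cycling AT2 cells for the 10 largest rises and the 10 largest falls among genes that passed, with a mean of at least 10 CPM and groups that do not overlap; circles are replicate 1, triangles replicate 2, grey control, orange knockdown. By this choice every grey symbol lies on the other side of every orange one, and Scgb3a1 spans 865 to 165 CPM within the controls alone.

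Airway secretory and basal genes, which mark other lung epithelia, were among the falls. Of 7 tested airway secretory genes 6 fell: Ltf, Cbr2, Bpifa1, Scgb3a1, Scgb1a1 and Cyp2f2. Scgb3a1, a secretoglobin gene, read 865 and 165 CPM in control libraries against 0 and 99.4 CPM in knockdown libraries. Cbr2, a carbonyl reductase gene of club cells, read 152 and 158 against 3.52 and 25.5 CPM (-3.83 ± 0.33, adjusted p = 1.58e-11). Lactotransferrin (Ltf) had 133 UMIs in the controls and 1 in the knockdowns, a ratio of 271 with a counting interval of 47.7 to 10766. Both tested basal genes fell as well: the keratin gene Krt5 had 44 and 0 UMIs, at least 29.8-fold lower against a floor of 3 UMIs over the group, and Trp63 had 21 and 3, a ratio of 14.2 with a counting interval of 4.25 to 74.6. By DESeq2, Ltf was the only airway gene of the 6 that passed. Scgb1a1 lost its call without control 1 (adjusted p = 0.704) and without knockdown 1 (0.112). Cyp2f2 lost its call without control 1 (0.719), knockdown 1 (0.0626) or knockdown 2 (0.0508), and Trp63 without knockdown 1 (0.264) or knockdown 2 (0.174).

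Falls of airway and basal genes were not particular to the class. In non-cycling AT2 cells 6 of 8 tested airway secretory genes and 2 of 2 basal genes fell (0.475% over all genes tested). In cycling fibroblasts 4 of 9 and 3 of 4 fell (1.16% over all genes tested). Airway genes ordered the libraries alike in cycling AT2 cells and in fibroblasts. Summed airway secretory markers read 1157, 464, 10.9 and 188 CPM in cycling AT2 cells. In the pool of non-cycling fibroblasts and other mesenchymal classes they read 1823, 492, 33.3 and 347 CPM. Fibroblasts are not known to make them, but the pool also held EMT-like cells. Control 1 was the highest library and knockdown 1 the lowest in both, and the cycling AT2 value was the lower one in 4 of 4 libraries. In cluster 32 of the deposited clustering the sums were 10054, 4198, 109 and 9077 CPM, another order, with knockdown 2 above control 2. The part of free RNA in the airway values was not tested. Summed basal markers read 37.4, 33.3, 0.494 and 1.85 CPM in cycling AT2 cells and 25.6, 20.2, 1.75 and 2.48 CPM in fibroblasts. In the controls the cycling AT2 sums lay above the fibroblast sums and in the knockdowns below them. Transitional cells, which are epithelial too, read 29.4, 23.8, 11.9 and 17.8 CPM. The part of free RNA in the basal values was not tested.

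**Figure D4:**
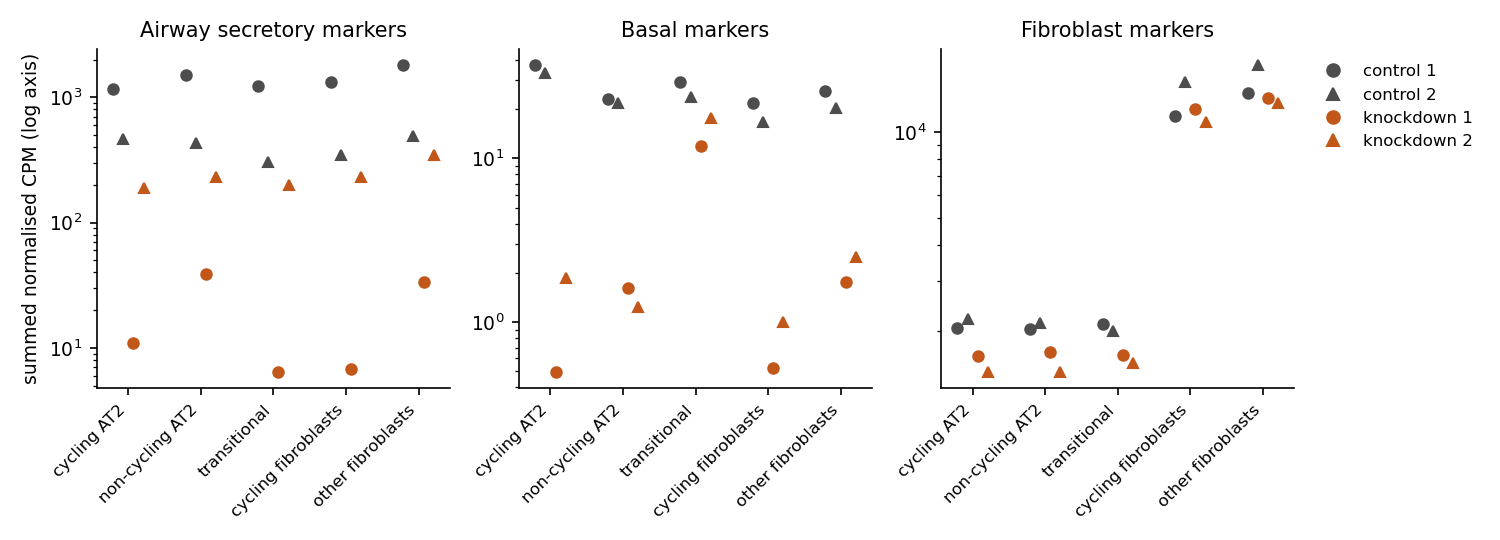
Summed normalised CPM (log axes, each panel with its own range) of airway secretory, basal and fibroblast markers by cell class and library; circles are replicate 1, triangles replicate 2, grey control, orange knockdown. Airway markers run from 1157 in control 1 to 10.9 in knockdown 1 in cycling AT2 cells. The other fibroblasts, pooled with smooth muscle and other mesenchymal classes, have the same order of libraries (1823 to 33.3). Fibroblast markers separate the 3 epithelial classes from the fibroblasts.

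Some fibroblast markers fell. Of 11 tested fibroblast markers, 4 fell (Col1a1, Col1a2, Vim and Dcn), and the list's median log2 change was -0.78. The collagen gene Col1a1 read 283 and 222 CPM in controls and 130 and 90.9 CPM in knockdowns (-1.18 ± 0.20, adjusted p = 0.000221), and Col1a2 read 263 and 227 against 136 and 67.3 CPM (-1.23 ± 0.22, adjusted p = 0.000341, 0.786 by DESeq2). The smooth muscle genes Acta2 and Tagln fell too, 2 of 3 tested. Without control 1 the calls of Col1a1 (adjusted p = 0.0879), Vim (0.719), Dcn (0.358), Acta2 (0.308) and Tagln (0.118) were lost. Dcn also lost its call without knockdown 2 (0.161), Acta2 without knockdown 1 (0.129), and Tagln without control 2 (0.412) or knockdown 1 (0.359).

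Of the 97 falls, 56 (57.7%) were of genes at least 5-fold higher in control fibroblasts than in control cycling AT2 cells. The share was 3.94% over all tested genes, and 1 of 38 rises, Mmp9, was of this kind. Summed fibroblast markers read 2051 and 2203 CPM in control cycling AT2 cells and 1640 and 1437 CPM in the knockdowns. The same sums were 2036, 2135, 1688 and 1433 CPM in non-cycling AT2 cells and 2124, 2008, 1650 and 1544 CPM in transitional cells, so the 3 epithelial classes had similar sums within each library. The part of free fibroblast RNA in these falls was not tested.

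Receptor genes included 2 falls of 20 tested. Egfr, the EGF receptor gene, read 34.3 and 21 CPM in controls and 9.31 and 4.58 CPM in knockdowns (-1.83 ± 0.34, adjusted p = 0.000497), and Fgfr1 read 24.5 and 31.5 against 15.1 and 3.92 CPM (-1.30 ± 0.33, adjusted p = 0.0233). Egfr and Fgfr1 were 12.1-fold and 13.3-fold higher in control fibroblasts, and their calls were lost without control 1 (Egfr, adjusted p = 0.229), or without control 2 (0.27) or knockdown 2 (0.172) for Fgfr1. Both calls were also lost without the tenth of cells with the highest doublet enrichment (Egfr 0.158, Fgfr1 0.596), where the log2 change of Fgfr1 was -0.84. Fgfr2, the FGF receptor of the epithelium, had a log2 change of 0.25 and did not pass. Other large falls with fibroblast levels above those of the class were Slit3 (-2.18 ± 0.30), a guidance ligand gene at 117 and 50.3 against 25.2 and 6.54 CPM, and Piezo2 (-2.88 ± 0.32), a mechanosensitive channel gene at 36.4 and 40.5 against 4.53 and 6.54 CPM. Slit3 had a log2 change of -1.45 without control 1 and -3.66 without knockdown 1, and DESeq2 did not call it.

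Among the falls, 41 were of genes less than 5-fold higher in control fibroblasts, Adam28 and Ifitm1 among them. Adam28, a metalloprotease gene, read 35 and 30.8 CPM in controls and 2.77 and 5.23 CPM in knockdowns (-3.20 ± 0.36, adjusted p = 3.74e-08), at 0.533 times its cycling AT2 level in control fibroblasts. Ifitm1, an interferon-inducible membrane protein gene, read 50.4 and 42.0 against 6.29 and 4.58 CPM (-2.99 ± 0.29, adjusted p = 7.07e-10), and was 3.18-fold higher in control fibroblasts. Reg3g, a secreted lectin gene of airway and gut epithelium, read 424 and 227 against 0.755 and 73.2 CPM (-3.49 ± 0.49), in the library order of the airway genes, and DESeq2 did not call it. The acute phase gene Saa3 fell (-1.59 ± 0.33, adjusted p = 0.00347) on 1 library: it read 17.5, 79.6, 16.4 and 15.0 CPM, and without control 2 its adjusted p was 0.967. Igfbp3, 1 of 15 tested p53 and senescence genes and 5.27-fold higher in control fibroblasts, fell from 12.6 and 12 to 2.27 and 1.31 CPM and lost its call without any of control 1 (adjusted p = 0.194), control 2 (0.13) or knockdown 2 (0.077).

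The total of 135 calls was itself sensitive to the library set: 55 genes passed without control 1 and 326 without knockdown 1. DESeq2 called 29 genes, all of them among the 135, and 21 genes passed under every alternative that gave a value. Of 3885 genes whose groups did not overlap (38.5% of those tested), 135 passed. In counts simulated from these libraries the test recovered 89 of 100 genes changed 4-fold and 55 of 100 changed 2-fold. The simulation gave all genes the same spread, so it does not show the recovery of genes that vary more.

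Whether the response belonged to dividing AT2 cells was asked by testing the difference between the knockdown effects in the 2 AT2 classes, with the library as a block. Of 11060 genes, 10 passed (0.0904%): the effect was lower in cycling cells for 8 (0.0723%) and higher for 2 (0.0181%). No listed S phase or G2/M gene was among them (0 of 42 and 0 of 50). In simulated counts with the same spread for all genes, this test made 11 false calls in 10899 genes. Non-cycling AT2 cells on their own showed 48 rises (0.447%) and 51 falls (0.475%) in 10737 genes. Of the 135 genes called in cycling AT2 cells, 54 were called there too. The 38 rises had a median log2 change of 1.31 in cycling cells and, where tested, 1.19 in non-cycling cells. For the 97 falls the medians were -1.47 and -0.72. These genes were chosen by their call in cycling cells, so the medians are not an even comparison. Side by side, the log2 changes in cycling and non-cycling AT2 cells were 2.33 and 2.74 for Cebpb, 2.63 and 2.52 for C2cd4b, 2.13 and 2.64 for Dapk3, 1.59 and 1.71 for Hspb1, and -2.99 and -2.53 for Ifitm1. None of these 5 differences passed.

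Retnla, a secreted resistin-like protein gene of type 2 inflammation, differed most clearly. It read 43.8, 115, 52.0 and 39.4 CPM in cycling AT2 cells (control 1, control 2, knockdown 1, knockdown 2), where the groups overlapped, and 86.5, 107, 180 and 176 CPM in non-cycling AT2 cells, where the knockdowns were higher. The difference of the effects was -1.58 ± 0.20 (SE, adjusted p = 5.19e-06), and without control 2 it did not pass (adjusted p = 0.152). Gdf15, a stress cytokine gene, read 35, 30.5, 27.3 and 29.2 CPM in cycling cells against 7.91, 21, 36.2 and 29.999 CPM in non-cycling ones (-1.504 ± 0.32, adjusted p = 0.0351), and it lost its call without control 1 (0.893) or knockdown 1 (0.388).

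Tnc, the matrix glycoprotein tenascin C, read 125, 69.0, 36.6 and 28.0 CPM in cycling AT2 cells and 38.6, 55.3, 56.7 and 50.6 CPM in non-cycling ones (-1.74 ± 0.24, adjusted p = 2.86e-05). Its call was lost without control 1 (adjusted p = 0.0862). Frmd5 (-1.47 ± 0.26), Tshz2 (-1.51 ± 0.29), Auts2 (-1.68 ± 0.32), Pdzrn3 (-1.36 ± 0.27) and Sfrp1 (-0.73 ± 0.16) had the same direction. Tnc and these 5 genes were 9.49-fold to 29.6-fold higher in control fibroblasts than in control cycling AT2 cells. Each of the 5 lost its call without knockdown 1 (adjusted p from 0.388 to 0.886) and without at least 1 control library. Without the tenth of cells with the highest doublet enrichment, the calls of Tnc (adjusted p = 0.793), Frmd5 (0.932), Tshz2 (0.232), Auts2 (0.189), Pdzrn3 (0.932) and Sfrp1 (0.987) were lost, and those of Retnla, Gdf15, Chil1 and Sfta3-ps passed.

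The 2 genes with a higher effect in cycling cells differed by little. Chil1, a chitinase-like protein gene, read 491, 750, 661 and 763 CPM in cycling and 967, 1399, 905 and 1180 CPM in non-cycling AT2 cells (0.40 ± 0.08, adjusted p = 0.0311), and Sfta3-ps read 676, 686, 823 and 717 CPM against 885, 903, 813 and 745 CPM (0.38 ± 0.08, adjusted p = 0.0437). Both lost the call without control 1, control 2 or knockdown 1 (adjusted p from 0.108 to 0.355). DESeq2 called none of these differences (33 genes at an unadjusted p under 0.05), and with cells of at most 20% mitochondrial UMIs 1 gene remained, Retnla.

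**Figure D5:**
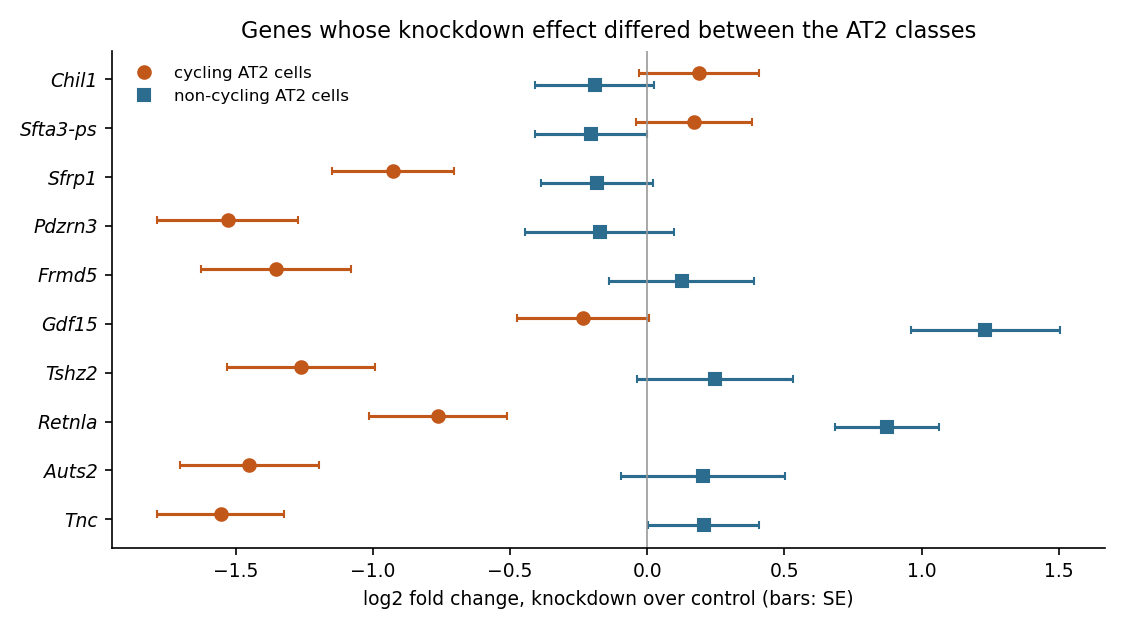
Log2 fold change, knockdown over control, in cycling (orange circles) and non-cycling (blue squares) AT2 cells, with SE bars, for the 10 genes whose effects differed at an adjusted p under 0.05. In 8 genes the cycling value lies to the left, as for Tnc at -1.56 against 0.21, and in Chil1 and Sfta3-ps it lies to the right.

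Cycling fibroblasts gave a second reference, since they divide but are the targets of the knockdown. The effects differed in 107 of 11869 genes (0.902%), higher in cycling AT2 cells for 22 (0.185%) and lower for 85 (0.716%). On their own, cycling fibroblasts showed 143 rises (1.15%) and 144 falls (1.16%) in 12418 genes. Again no listed S phase or G2/M gene differed (0 of 42 and 0 of 50). Without control 1, 32 genes passed, and DESeq2 called 6. Adgrg1, an adhesion G protein-coupled receptor gene, read 119, 129, 145 and 143 CPM in cycling AT2 cells and 3.21, 3.03, 91.4 and 96.7 CPM in cycling fibroblasts (difference -4.68 ± 0.24, adjusted p = 8.93e-19). In cycling AT2 cells alone its log2 change was 0.23 (adjusted p = 0.847), and in cycling fibroblasts alone it was 4.89.

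Etl4 (-2.08 ± 0.19), Thsd4 (-1.46 ± 0.16), AC149090.1 (-1.59 ± 0.20) and Tgfbi (-1.59 ± 0.23) likewise rose in cycling fibroblasts and did not pass in cycling AT2 cells: Etl4 read 303, 210, 270 and 198 CPM in cycling AT2 cells and 23.5, 21.7, 99.7 and 76.6 CPM in cycling fibroblasts. In the other direction Wfdc2, an epithelial secreted protein gene, held at 1537, 1954, 1581 and 1934 CPM in cycling AT2 cells while it read 323, 203, 63.1 and 110 CPM in cycling fibroblasts (1.61 ± 0.21, adjusted p = 5.29e-06). Lgals3 (1.23 ± 0.19), Pglyrp1 (2.27 ± 0.41), Gpc3 (1.20 ± 0.22), Foxp2 (1.09 ± 0.21) and Ank3 (0.99 ± 0.19) showed the same arrangement. Pglyrp1 lost its call without control 1 (adjusted p = 0.112), Gpc3 without control 2 (0.0545) and Ank3 without knockdown 1 (0.128).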

How the data were processed

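Single cells of 4 alveolosphere libraries (2 control, 2 knockdown) were profiled with a combined ATAC and gene expression kit, per the labels' protocols. The authors deposited raw UMI counts for 32285 genes in 45936 cells, with GRCm38 (mm10) named in the submitters' processing notes. No source used here gives the aligner, the use of introns and strand, or the cell filters. Per the file headers, the deposited cell table also holds the percent of mitochondrial UMIs (at most 35.0%), ATAC fragment counts, an ATAC doublet enrichment ratio and a start-site enrichment score. Cell classes are the authors' deposited annotation, and 49 other metadata columns were not used.

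Counts were summed per library and class. The knockdown effect was tested with edgeR 4.0.16 (filterByExpr, TMM, quasi-likelihood test, Benjamini-Hochberg adjustment over all tested genes, threshold 0.05), and differences between classes by an interaction term, libraries entering as blocks. The self-test on simulated data ran on 9929 genes for the knockdown effect. CPM values were normalised separately for each comparison, so a gene's level differs slightly between them. No doublet caller was run; leaving out the 10% of cells with the highest deposited doublet enrichment was an alternative. Others were DESeq2 1.42.0, limma 3.58.1 voom, no TMM, other filters, a mitochondrial limit, a gene length offset, and each library left out. Genes were named by rule: the 10 largest rises and falls that passed with a mean of at least 10 CPM and no overlap, called or most abundant list members, up to 6 genes per direction of an interaction, and the class markers. Exceptions, among them Tnip3, Fgfr2 and Ccnd1, were picked after their values were seen. The cells and the gene lists were chosen with earlier results of these data known. Replicate numbers were not treated as pairing libraries.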

Additional observations from a re-analysis of the deposited data

Results flagged for a closer look

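The knockdown effect differed between cycling and non-cycling AT2 cells in 10 genes by the interaction test of edgeR. The difference, cycling minus non-cycling, was -1.74 for Tnc, -1.68 for Auts2, -1.58 for Retnla, -1.51 for Tshz2, -1.47 for Frmd5 and -1.36 for Pdzrn3 on the log2 scale, and 0.40 for Chil1 and 0.38 for Sfta3-ps. Each of these calls was lost by DESeq2 and with at least 1 library left out.

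Against cycling fibroblasts the effect differed in 107 genes. Adgrg1 differed by -4.68, Etl4 by -2.08, Saa3 by -1.90, AC149090.1 by -1.59, Tgfbi by -1.59 and Thsd4 by -1.46. In the other direction Pglyrp1 differed by 2.27, Wfdc2 by 1.61, Lgals3 by 1.23, Gpc3 by 1.20, Foxp2 by 1.09 and Ank3 by 0.99. Saa3 lost its call without control 2 (adjusted p = 0.171 by edgeR).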

How the results depend on the processing

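Of 836 alternative values for 65 named genes, 756 kept direction and side of the threshold, 69 lost the call, 11 gained it and 0 reversed. The 65 included genes that were not called, such as Gapdh and Pcna, which could gain a call but not lose one. The 756 therefore does not measure how stable the calls were. The 135 knockdown calls became 29 by DESeq2, 78 with at most 20% mitochondrial UMIs, 62 with the length offset, and 55 to 326 with 1 library left out (55 without control 1, 326 without knockdown 1). With the replicate block 373 genes passed, all 135 among them; same-numbered libraries deviated together with r = 0.18 over 9074 genes, but 2 pairs do not settle a pairing. The 10 differences from non-cycling AT2 cells became 0 by DESeq2, 23 with no filter, 6 at a mean count of at least 20, 1 under the mitochondrial limit, 16 with the length offset, 8 without the cells of highest doublet enrichment (4 of the 10 among them) and 9 to 27 with 1 library left out (27 without knockdown 2). The 107 differences from cycling fibroblasts became 6 by DESeq2, 68 at a mean count of at least 20, 46 under the mitochondrial limit and 32 to 138 with 1 library left out. The mitochondrial limit left 8 of 214 cycling fibroblasts in knockdown 1 and 52 of 201 in knockdown 2. The share difference of 4.36 points became 7.18 against both AT2 classes and 1.97 against all cells. It became 2.02 with cluster 23 counted as cycling and clusters 19 and 23 in the epithelium. Control means were 11.2%, 31.1%, 1.53% and 17.1% in that order, so points on these denominators are not comparable in size. Among epithelial cells, the share difference was 1.68 to 7.04 points with 1 library left out. The difference in cells with Mki67 or Top2a, -1.54 points, was 3.21 without thinning, -7.67 under the mitochondrial limit, and -5.92 to 2.83 with 1 library left out, reversed without control 2 (2.08) and without knockdown 1 (2.83). Genes counted against non-cycling AT2 cells became 72 higher and 6 lower at a mean of 50 CPM, and 20 to 35 lower with 1 library left out. The cause of these changes was not tested, beyond fewer or more genes and libraries entering a fit. With 2 libraries a group, no permutation test can go below 0.333. Simulated 2-fold changes were recovered in 55 of 100 genes at this depth, with the same spread for all genes.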

Other observations

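Replication-dependent histone genes, looked at after their values were seen, are made in S phase and packed onto new DNA. Of 10 tested in cycling AT2 cells, those with names beginning Hist, 0 rose and the median log2 change was -0.53. H1fx, a linker histone gene outside this set, rose. Hist1h2ap also fell in non-cycling AT2 cells (-2.07, adjusted p = 0.00679 by edgeR). Hist1h2ae read 37.8 and 35.3 against 18.4 and 13.1 CPM (-1.14), and lost its call without control 1 (adjusted p = 0.141 by edgeR). Hist1h1e read 16.1 and 21.8 against 6.54 and 7.19 CPM (-1.47), and lost it without control 2 (0.491), among others. Histone genes are near-identical copies and most of their transcripts lack a poly(A) tail, so their counts are uncertain.

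Cluster 23, which the coarser annotation puts with cycling epithelium, held AT2 identity genes at 38.3% to 42.5% of their non-cycling AT2 level and fibroblast genes at 47.1% to 54.5% of their fibroblast level. Its summed G2/M genes read 1649, 1755, 1545 and 2433 CPM (control 1, control 2, knockdown 1, knockdown 2), against 4849, 5433, 5335 and 6174 CPM in cycling AT2 cells.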
